A study of Arabidopsis thaliana with 2 samples.

Results

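The histone genes of Arabidopsis thaliana were examined as one group of 41 loci, chosen by locus number to cover the core histones H2A, H2B, H3 and H4 and the linker histone H1. Of these 41 loci, 27 had a probe set annotated to them, among 14265 genes with an annotated probe set on the array. The study compared shoots of GFP-TIE1-15, a transgenic line carrying GFP-TIE1, with those of Columbia-0 wild-type, taken as the whole aerial part of seedlings at 14 days. The TIE1 protein acts on leaf development by recruiting TOPLESS corepressors to TCP transcription factors. Plants of both genotypes grew on the same medium under long days, and 1 Affymetrix array was hybridised per genotype. The promoter of the transgene and the number of plants behind each RNA sample are not given in the sources used here, and GFP-TIE1-15 stands for a single line.

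Core histones form the spool around which DNA is wrapped, and H1 binds the DNA between spools. Replication-type histones, such as H3.1 and most genes for H4 and H2B, are made mainly while cells copy their DNA, and are used to package the new strands. Variants such as H3.3 are made outside DNA replication as well and replace the replication-type protein at transcribed genes. In a young shoot, transcripts of replication-type genes come largely from the dividing cells of the apex and of young leaves, while H3.3 and H1 transcripts are also made in cells that have stopped dividing. On arrays of whole shoots, a different number of such cells and a different amount of RNA per cell cannot be told apart.

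Transcripts of the replication-type classes H4 and H3.1 were above wild-type in GFP-TIE1-15 on all 10 of their probe sets, with median folds of 1.31 and 1.33. Those of the variant H3.3 were below wild-type on all 3 of its probe sets, with a median fold of 0.856, and those of the linker histone H1 on all 3, with a median fold of 0.817; scaled to spike-in controls, 1 H3.3 probe set was above wild-type. Among all 11308 measured probe sets, 51.5% were above wild-type and 48.5% below. The H2B genes were mixed: of the 6 bright enough to be measured, 4 were above wild-type and 2 below, and 2 dim ones were below. The differences were small, and only 1 histone gene, the linker histone gene HIS1-3, differed by at least 2-fold, and it was bright enough in wild-type only, so its direction was fixed. It no longer passed 2-fold with the larger pseudocount tried or with spike-in scaling (log2 ratio -0.91), and the stricter brightness minimum removed it. A difference of at least 2-fold was shown by 1.20% of measured probe sets in the higher and 2.39% in the lower direction. With 1 array per genotype there is no replicate, so no difference has an error or a test, and the number of arrays limits the precision of every value.

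The array annotation decides what can be said of single histone genes. The 8 H4 loci share 5 probe sets, the 5 H3.1 loci share 5, and the 3 H3.3 loci share 3, because the annotation gives each of these probe sets to every locus of its class. They are therefore described by class, and no value is assigned here to a single H4 or H3 locus. Of these 13 probe sets, only 3, all of H4, carry the suffix for sequence shared between transcripts. The others may read fewer loci than the annotation gives them. Only 8 H2B and 3 H1 loci had a probe set annotated to them alone. The other 14 loci, 12 of H2A and 2 of H2B (HTB9 and AT3G53650), were not analysed here. All 12 H2A loci are among them, so the H2A.W, H2A.X and H2A.Z variants and the replication-type H2A genes are missing, and H3.3 alone stands for the variants. Transcripts of histone paralogs are alike in sequence, so signal from one gene can reach the probe set of another.

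Signals are the deposited linear intensities. Each log2 ratio sets GFP-TIE1-15 over wild-type after 50.0 is added to each signal, so the difference of a dim gene is understated. Probe sets with at least 200.02 on the brighter array are called measured. Of 24 histone probe sets, 22 were measured, and 21 of these had both arrays above the minimum. HIS1-3 passed through wild-type only, so its sign was fixed by the minimum. Over all 11308 measured probe sets, the median log2 ratio was 0.01, with a 25th percentile of -0.21 and a 75th of 0.24.

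**Figure D1:**
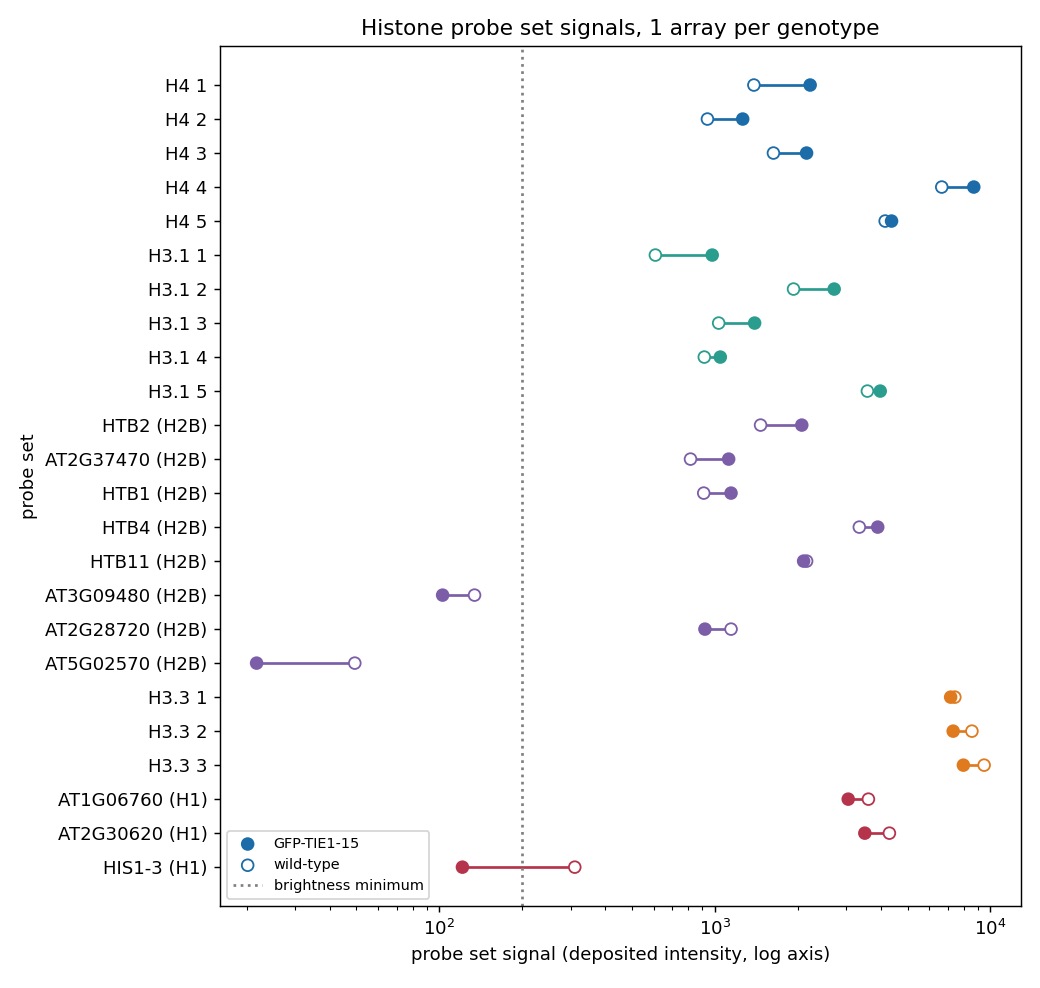
Deposited signal (log axis) of the 24 histone probe sets on the GFP-TIE1-15 array (filled) and the wild-type array (open), by class, with the brightness minimum of 200.02 dotted. Filled points lie right of the open ones for all 10 H4 and H3.1 probe sets, and left of them for all H3.3 and H1 probe sets.

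H4 is the core histone that pairs with H3, and all 8 of its loci are of the replication type here. The probe set 247692_s_at had a signal of 8697 in GFP-TIE1-15 and 6655 in wild-type, a log2 ratio of 0.38. The probe set 252562_s_at had 2216 in GFP-TIE1-15 and 1385 in wild-type, the furthest apart of the 5, with a log2 ratio of 0.66. The closest pair of signals was on 251924_at, with 4374 in GFP-TIE1-15 and 4147 in wild-type, a log2 ratio of 0.08. These probe sets are annotated to the same 8 loci, yet their log2 ratios ran from 0.08 to 0.66. That range can hold differences between H4 loci as well as disagreement between probe sets, and these were not told apart. The probe set 261408_s_at had 2150 in GFP-TIE1-15 and 1630 in wild-type (log2 ratio 0.39). On 266226_at the signals were 1261 in GFP-TIE1-15 and 939 in wild-type (log2 ratio 0.41). The GFP-TIE1-15 signal was the higher on each of the 5, and the class had a median log2 ratio of 0.39. It was 0.24 over the 2 probe sets left when the 3 with the suffix for sequence shared between transcripts were removed.

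H3.1 is the H3 protein that is placed on newly copied DNA. The probe set 257714_at had 977 in GFP-TIE1-15 and 608 in wild-type, a log2 ratio of 0.64, the highest of the class. The probe set 264262_at had 2708 in GFP-TIE1-15 and 1929 in wild-type (0.48), and 250434_at had 1393 in GFP-TIE1-15 and 1032 in wild-type (0.42). Both of these lay above the 75th percentile of all measured probe sets. The other pair lay below that percentile. Of these, 250433_at had 1046 in GFP-TIE1-15 and 915 in wild-type, a log2 ratio of 0.18. The probe set 247192_at had 3980 in GFP-TIE1-15 and 3575 in wild-type, a log2 ratio of 0.15. The median of the 5 H3.1 probe sets was 0.42. In the gene table, AT5G10390 and AT5G10400 of this class are direct neighbours.

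H3.3 differs from H3.1 by a few amino acids and takes its place at transcribed genes. The probe set 252849_at had 7972 in GFP-TIE1-15 and 9482 in wild-type, a log2 ratio of -0.25. Signals on 250397_at were 7321 in GFP-TIE1-15 and 8564 in wild-type (-0.22). On 252824_at they were 7169 in GFP-TIE1-15 and 7423 in wild-type, which lay close together with a log2 ratio of -0.05. All 3 GFP-TIE1-15 signals were the lower ones, and the median log2 ratio of -0.22 lay just below the 25th percentile of all measured probe sets. AT4G40030 and AT4G40040, which carry 2 of the 3 H3.3 genes, are direct neighbours in the gene table.

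Within H3, the log2 ratios of the replication-type and variant classes did not overlap, but the gap was narrow. The lowest of the 5 H3.1 probe sets was at 0.15 and the highest of the 3 H3.3 probe sets at -0.05. Both values lay between the 25th and 75th percentiles of all measured probe sets, -0.21 and 0.24. That the signs of the classes were opposite depends on the scale, since 252824_at of H3.3 was at 0.16 when scaled to spike-in controls. The H3.1 median exceeded that of H3.3 by 0.64, a fold of 1.56. Because both classes were read on the same arrays, a factor that multiplies all signals of an array has almost no effect on this difference.

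H2B pairs with H2A, and 8 of its 10 loci had a probe set annotated to them alone. These 8 are described one by one, though signal from paralogs can reach their probe sets. HTB2 (AT5G22880) had 2066 in GFP-TIE1-15 and 1464 in wild-type, the highest log2 ratio of the class at 0.48. AT2G37470 had 1121 in GFP-TIE1-15 and 815 in wild-type (0.44), and HTB1 (AT1G07790) had 1144 in GFP-TIE1-15 and 910.5 in wild-type (0.31). HTB4 (AT5G59910) had 3898 in GFP-TIE1-15 and 3342 in wild-type, a log2 ratio of 0.22. These 4 had the higher signal in GFP-TIE1-15, like H4 and H3.1. HTB11 (AT3G46030) had nearly equal signals, 2098 in GFP-TIE1-15 and 2151 in wild-type, a log2 ratio of -0.04 that was 0.17 when scaled to spike-in controls. AT2G28720 had 920 in GFP-TIE1-15 and 1144 in wild-type, a log2 ratio of -0.30, the lowest of the 6 measured H2B genes. The H2B genes thus did not share one direction.

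A further pair of H2B genes was dim on both arrays, and their ratios carry little information. AT3G09480 had 103 in GFP-TIE1-15 and 134 in wild-type, a log2 ratio of -0.27. AT5G02570 had 21.7 in GFP-TIE1-15 and 49.3 in wild-type, a log2 ratio of -0.47. The median of H2B was 0.27 over the 6 measured genes and 0.09 over all 8 annotated, so it depends on whether these dim genes are counted.

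**Figure D2:**
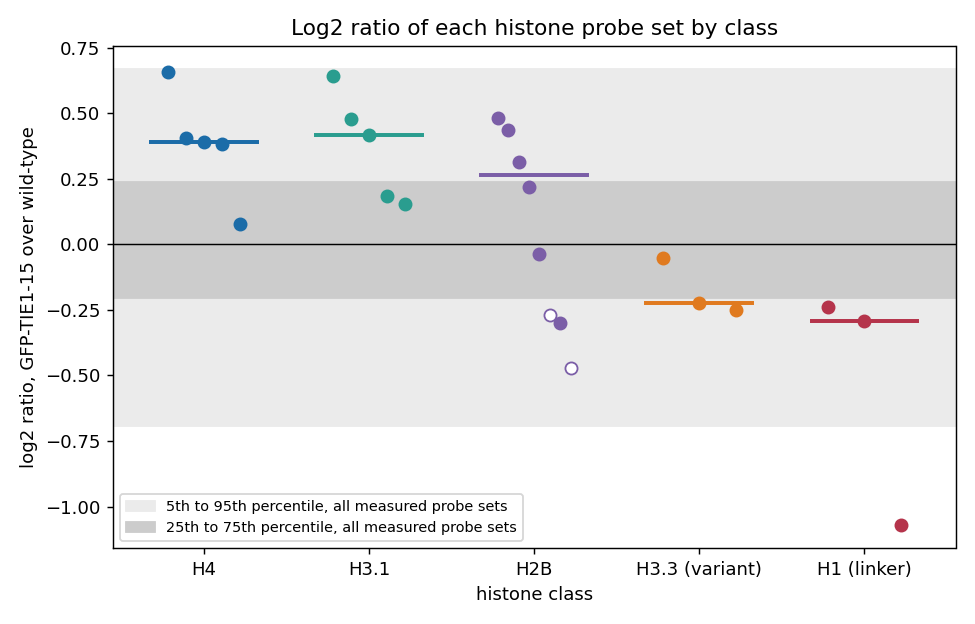
Log2 ratio (GFP-TIE1-15 over wild-type) of each histone probe set by class (open points, below the brightness minimum) with the median of the measured ones as a line, and grey bands for all 11308 measured probe sets. The H4 and H3.1 points all lie above 0, the H3.3 and H1 points all below 0, and H2B spans both sides.

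H1 sits on the DNA that links nucleosomes and helps to compact chromatin. Its main genes, AT1G06760 and AT2G30620, were bright on both arrays. AT1G06760 had 3046 in GFP-TIE1-15 and 3606 in wild-type, a log2 ratio of -0.24, and AT2G30620 had 3499 in GFP-TIE1-15 and 4297 in wild-type, a log2 ratio of -0.29. HIS1-3 (AT2G18050), a linker histone gene known to be induced by drought and abscisic acid, had 121 in GFP-TIE1-15 and 309.9 in wild-type. Its log2 ratio was -1.07, the lowest of all histone probe sets, and it was the only one past 2-fold. Adding 1 to each signal instead of 50.0 gave -1.35, and adding 25% of the array's trimmed mean gave -0.82, so the 2-fold difference depends on the pseudocount. For the 22 measured histone probe sets the counts past 2-fold were thus 1 lower and 0 higher. The 1 lower was HIS1-3, with its sign fixed, and the counts are too few to read against the shares over all probe sets.

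Set side by side, 14 of the 18 annotated replication-type probe sets had a log2 ratio above 0, against 0 of the 3 of the variant H3.3 and 0 of the 3 of H1. Among all 22746 probe sets other than controls, 49.5% were above 0 and 50.1% below. The median log2 ratio was 0.35 over the 18 replication-type probe sets, or 0.39 over the 16 measured. It was -0.22 for H3.3 and -0.29 for H1. The replication-type median exceeded the variant median by 0.61 on the log2 scale over measured probe sets, a fold of 1.53, and by 0.57 over all annotated ones. The probe sets within H4, within H3.1 and within H3.3 are annotated to the same loci, so they cannot be taken as independent. Taking 1 value per class, the median over H4, H3.1 and H2B was 0.39.

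Brightness moved in part with class, since all H3.3 signals were at least 7169. Of the other histone probe sets, only 247692_s_at of H4 was of like brightness. It had 8697 in GFP-TIE1-15 and 6655 in wild-type, a log2 ratio of 0.38. A local median and a local SD (the median absolute deviation scaled to that of a normal distribution) were taken over the 500 measured probe sets nearest in mean signal. Both describe how genes scatter on this pair of arrays and say nothing of how plants vary. Across the 22 measured histone probe sets the local median lay between -0.09 and 0.04 and the local SD between 0.29 and 0.40. Of these 22, 9 lay more than 1 local SD above their local median, against 17.0% of all measured probe sets: 4 of the 5 of H4, 3 of the 5 of H3.1 and 2 of the 6 of H2B. HIS1-3 alone lay more than 1 local SD below, where 16.8% of all measured probe sets lay. It was bright enough in wild-type only, so its sign was fixed by the brightness minimum and is not a result. The other 12, all of H3.3 included, lay within 1 local SD. The dim pair of H2B genes was left out, since probe sets as dim are mostly not measured. With the trend of the log2 ratio on brightness removed, the medians were 0.40 for H4, 0.41 for H3.1, -0.18 for H3.3 and -0.29 for H1, and the replication-type median exceeded that of H3.3 by 0.57.

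**Figure D3:**
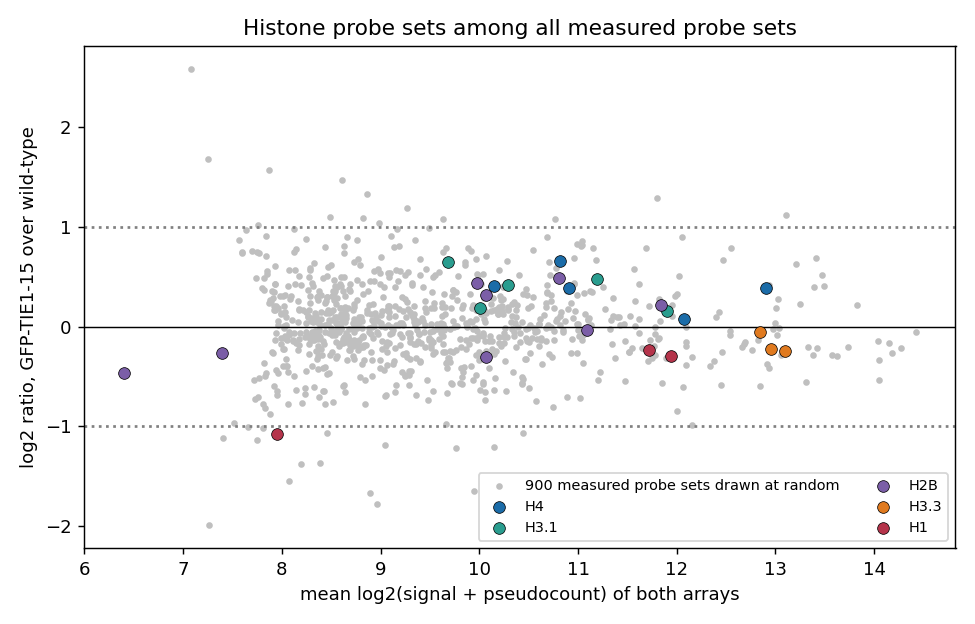
Log2 ratio (GFP-TIE1-15 over wild-type) against the mean log2(signal + pseudocount) of both arrays for the 24 histone probe sets (coloured by class) and 900 measured probe sets drawn at random (grey), with the 2-fold limits dotted. The histone points other than HIS1-3 lie between these limits, and the H3.3 points and the H4 point of 247692_s_at are at the bright end.

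The scale of the arrays matters for the signs near 0. The spike-ins are bacterial and phage control RNA added with the hybridisation mix, so they do not track RNA input or labelling. For them, 12 probe sets were measured. Their median log2 ratio was -0.22, from -0.36 to 0.04, close to the values of H3.3 and H1. Scaling both arrays to these spike-ins, an alternative chosen after seeing the data, moved the median of all measured probe sets to 0.21. The H3.3 median was then -0.02 and that of H1 was -0.08, while H4 and H3.1 were at 0.59 and 0.62. One H3.3 probe set, 252824_at, then changed sign to 0.16, and HTB11 to 0.17. The difference between the replication-type and variant medians was 0.61 with this scaling too. Which scale is right was not tested.

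**Figure D4:**
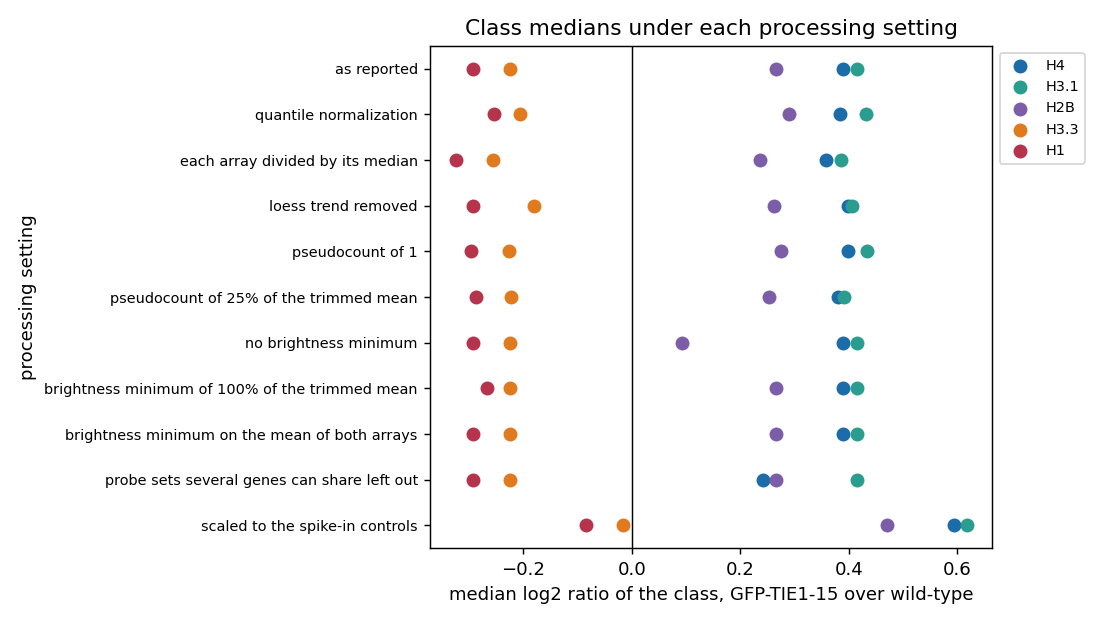
Median log2 ratio (GFP-TIE1-15 over wild-type) of each histone class (x axis) under the reported setting and each alternative (y axis). H4, H3.1 and H2B stay above 0 and H3.3 and H1 below 0 in every setting shown, with H3.3 and H1 nearest to 0 when scaled to the spike-in controls.

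Other genes of chromatin assembly and DNA replication were thinly covered by the annotation. Of 14 listed histone chaperone genes, 3 had a named probe set and all 3 were measured, with 0 past 2-fold in either direction and 2 above 0. ASF1B, which hands H3 and H4 to the assembly machinery, had 434 in GFP-TIE1-15 and 288 in wild-type, a log2 ratio of 0.52. Its paralog SGA2, also called ASF1A, had 334 in GFP-TIE1-15 and 314 in wild-type (0.08). AT4G37210 had 540.0 in GFP-TIE1-15 and 559 in wild-type (-0.05). Of these chaperone genes, ASF1B alone had a ratio above the medians of H4 and H3.1.

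Of 26 listed DNA replication genes, 3 had a named probe set and 1 was measured. That gene, PRL, which encodes the MCM7 subunit of the replicative helicase, had 500.3 in GFP-TIE1-15 and 429.9 in wild-type, a log2 ratio of 0.20. The DNA polymerase gene ICU2 had 131 in GFP-TIE1-15 and 119 in wild-type, and AT5G26680 had 115 in GFP-TIE1-15 and 122 in wild-type, both below the minimum on both arrays. Of 14 listed mitosis genes, 2 were named and measured. The mitotic kinase genes AUR1 and AUR2 had log2 ratios of 0.58 and 0.61, with 528 and 349 in GFP-TIE1-15 and 338 and 212 in wild-type. No gene of these lists was past 2-fold, and their part in the histone values was not tested.

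The tissue label was checked against markers. Of 8 listed leaf photosynthesis genes, 2 were named, and both were bright on both arrays: LHCB4.1 had 20353 in GFP-TIE1-15 and 25525 in wild-type, and RCA had 16628 in GFP-TIE1-15 and 21195 in wild-type. Their log2 ratios were -0.33 and -0.35, so these leaf markers lay below wild-type together with H3.3 and H1; their part in the histone values was not tested. Of 4 listed root markers, 3 were named. The root hair genes EXPA7 and EXPA18 were below the minimum on both arrays, at 3.8 and 44.3 in GFP-TIE1-15 and 30.1 and 62.3 in wild-type. PYK10, which is abundant in roots and is also made in seedling shoots, was the 1 root marker measured. It was bright on both arrays, with 5954 in GFP-TIE1-15 and 6746 in wild-type, so the root markers gave a mixed answer.

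Some histone loci lie near each other. In the gene table, 10 pairs of listed loci had at most 10 genes between them, of which 3 were direct neighbours and 5 joined an H2B to an H4 locus. The H2B gene HTB1 lies 3 genes from the H4 locus AT1G07820, and AT2G28720, the measured H2B gene with the lowest ratio, lies 2 genes from the H4 locus HIS4 (AT2G28740). Since the annotation used here does not tell the H4 loci apart, whether such neighbours differed alike was not tested.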

How the data were processed

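Total RNA from the aerial parts of 14-day-old seedlings was hybridised to 1 Affymetrix array per genotype. GCOS 1.0 and MAS5 are named in the submitters' processing notes. The authors deposited linear intensity values for 22810 probe sets, and the trimmed mean (2% off each end) was 500.05 on both arrays, so they were used as deposited. The scaling target is not given in the sources used here, and no detection calls were used.

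Probe sets were named through the platform annotation and the TAIR10.1 RefSeq gene table, with 13513 given 1 gene, 503 given several and 8730 unnamed here. A histone probe set given to several loci was used only where all belong to 1 histone class. From the deposited intensity, log2(signal + 50.0), a pseudocount of 10% of the trimmed mean, was computed, with a brightness minimum of 40% of it, 200.02. With 1 array per genotype no test was possible; a difference of 1 or more on the log2 scale counted as 2-fold. All histone loci with a probe set annotated to them alone were named, and up to 4 measured genes of each other list. Dim genes named from those lists fall outside this rule and were picked with their values known. Members and lists were chosen with earlier results of these data known. This 2-fold rule was tried on simulated data with planted changes well beyond 2-fold. That trial says nothing of differences as small as those of most histone probe sets. Sequences and promoter motifs were not analysed here. Python 3.11.15, numpy 2.4.6, pandas 2.3.3, statsmodels 0.14.6 and matplotlib 3.10.9 were used.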

Additional observations from a re-analysis of the deposited data

How the results depend on the processing

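No paired analysis was possible because there was a single array for either genotype. The alternatives were quantile normalization, division by the median, removal of a loess trend, a pseudocount set to 1 or to 25% of the trimmed mean, brightness minimums of none, of 100% of the trimmed mean and on the mean of both arrays, and leaving out probe sets whose suffix marks shared sequence. Scaling to the spike-in controls and 1 value per histone class were added after seeing the data. A median counted as moved beyond 0.1 and a count beyond 1.5 times. The difference of 0.61 between the replication-type and variant medians ranged from 0.54 to 0.62, the replication-type median from 0.31 to 0.59, that of H3.3 from -0.26 to -0.02 and that of H1 from -0.32 to -0.08.

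Scaled to the spike-ins, the medians were 0.59 for replication-type genes, -0.016 for H3.3, -0.085 for H1, 0.39 for DNA replication, 0.26 for chaperones and 0.77 for mitosis, 252824_at of H3.3 was at 0.16 and HTB11 at 0.17, and 288 probe sets were at least 2-fold higher. This scaling adds nearly the same amount to every log2 ratio by construction. The chaperone median was -0.046 with the minimum of 100%, which leaves 1 gene. The count of 1 histone gene at least 2-fold lower was 0 with a pseudocount of 25%, with the minimum of 100%, which removes HIS1-3, and with spike-in scaling. The 136 higher probe sets numbered 209 at a pseudocount of 1, 75 at 25% of the trimmed mean, and 83 with the minimum of 100%, where the 270 lower ones were 178. For dim genes the signal over background sets the limit.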
